A study of Mus musculus with 24 samples.

Results

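The genes described here were 44 Wnt ligands, receptors and extracellular regulators, taken by symbol from a named list out of 19938 genes measured on Affymetrix mouse Gene ST arrays. The list held 18 Wnt ligands, 10 Frizzled receptors, the LRP co-receptors *Lrp5* and *Lrp6*, the receptors *Ror1*, *Ror2* and *Ryk*, 5 extracellular inhibitors, the acyltransferase *Porcn*, and 5 R-spondins and Lgr receptors. Symbols and not values decided membership, but the list was drawn up with earlier results of these data known, and *Wnt2* was not on it. All 44 were on the array, *Wnt4* with 2 probe sets and the other 43 with 1 each.

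The arrays profiled anterior heart field (AHF) tissue, the pharyngeal mesoderm that adds cells to the outflow tract of the heart tube, dissected from mouse embryos at E9.5 with 19 to 21 pairs of somites. Each of 3 experiments had 4 mutant and 4 control arrays. *Tbx1 LOF* embryos carried *Mef2c-AHF-Cre/+* with *Tbx1 f/-* or *Tbx1 f/f*, *β-cat LOF* embryos carried *Mef2c-AHF-Cre/+* with both *β-catenin* alleles floxed, and rescue embryos had the *Tbx1* conditional loss plus 1 floxed *β-catenin* allele. The study's methods give Cre-negative *Tbx1 f/+*, *β-catenin f/+* and *Tbx1 f/+;β-catenin f/+* embryos as the respective controls, whereas the protocol in the labels names wild type and *Mef2c-AHF-Cre/+;Tbx1 f/+* littermates, so whether a control carried Cre is not settled. In the mutants the Cre was active only in the *Mef2c-AHF-Cre* domain, while the dissected pharyngeal arches also held cells outside it, and each array was hybridised with RNA pooled from several embryos.

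Wnt ligands are lipid-modified by Porcn, secreted, and bound by Frizzled receptors. With the co-receptors Lrp5 and Lrp6 they stabilise β-catenin, which activates target genes with TCF/LEF factors, whereas ligands such as Wnt5a and Wnt11 signal mainly without β-catenin, through Ror and Ryk receptors and planar cell polarity proteins. Dickkopf proteins block the LRP co-receptors, Wif1 binds the ligands, and R-spondins acting through Lgr receptors keep Frizzled receptors at the cell surface. In the second heart field, canonical signalling is known to promote progenitor growth and *Wnt5a* and *Wnt11* are needed for a normal outflow tract.

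The targeted gene was checked first. *Tbx1* read 10.98, 11.28, 11.43 and 11.40 in *Tbx1 LOF* arrays 1 to 4 and 11.91, 11.77, 11.98 and 11.99 in their controls, so that every mutant array was below every control. It fell by 0.64 on the log2 scale (limma, SE 0.09, adjusted p = 0.00626). In rescue *Tbx1* lay between 11.39 and 11.51 against 11.58 to 11.95, a log2 fold change of -0.31 (unadjusted p = 0.00344). *Tbx1* was 1 of 6 genes with an adjusted p under 0.05 in *Tbx1 LOF*, and with the replicate number as a block 0 genes passed. *Ctnnb1*, which encodes β-catenin, had log2 fold changes of -0.03 and -0.05 in *β-cat LOF* and rescue, so the array gave no check of the *β-catenin* alleles. In *Tbx1 LOF*, where this gene was not targeted, the value was -0.04. By qRT-PCR, with *Tbx1 f/+* embryos as the control, the study reported more *β-catenin* mRNA in *Tbx1 LOF* and less in rescue. The array values, each against the controls of its own experiment, did not show these changes. Whether the *Ctnnb1* probes lie in the deleted exons was not checked. All 11 measured AHF markers read above the 95th percentile of olfactory and vomeronasal receptor genes, and their mean per array lay between 10.73 and 10.93, with 2 higher and 5 lower in *Tbx1 LOF* at an unadjusted p under 0.05. Cardiomyocyte, neural tube and liver and gut markers were also above that level except for 1 liver and gut gene, and they differed between groups. At the same p, *Tbx1 LOF* was higher for 9 of 12 cardiomyocyte markers, while 11 of the 12 were lower in *β-cat LOF*. Of 15 neural tube markers, 5 were lower in *Tbx1 LOF* whereas *β-cat LOF* had 7 higher, and of 10 liver and gut markers 6 were higher in *Tbx1 LOF*. Of all genes, 2.17% were higher and 1.95% lower in *Tbx1 LOF* at that p, and 2.83% higher and 2.88% lower in *β-cat LOF*. Control array 2 of the *β-cat* experiment stood apart, with a mean of 12.49 over the cardiomyocyte markers against 10.11 to 11.01 in the other 3. In bulk tissue, fewer cells of a type and less RNA per cell cannot be told apart.

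In the 12 control arrays, 43 of the 44 genes had a mean log2 intensity above 7.18, the 95th percentile of 1190 olfactory and vomeronasal receptor genes that this tissue is not known to use. The exception was *Wnt8b*, a ligand of the forebrain, at 6.62 ± 0.12 (SD, n = 12). The probe sets of receptor genes were not matched in base composition, and a probe set's level also depends on how well it hybridises, so these levels place each gene against a common reference and do not rank transcripts by amount. Over 10 on the log2 scale were 14 of the 44 genes (29.2% of all genes), between 8 and 10 were 22, and under 8 were 8, against a median of 8.60 for all genes. That median is itself above 7.18, so most genes on the array pass this reference. Passing it does not show that a gene is expressed.

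Among the ligands, *Wnt5a* alone was above 10, at 10.74 ± 0.08 in the controls. Of the other ligands, 10 lay between 8 and 10 and 7 lay under 8. The middle group included *Wnt2b* (8.85 ± 0.19), *Wnt4* (8.86 ± 0.14), *Wnt6* (8.82 ± 0.08) and *Wnt11* (8.48 ± 0.21). The low group included *Wnt1* (7.48 ± 0.16), *Wnt3a* (7.77 ± 0.15) and *Wnt8a* (7.42 ± 0.12), ligands known from the dorsal neural tube and the early posterior embryo. Receptors read differently: none of the 10 Frizzled genes was under 8, and 5 of them (*Fzd1*, *Fzd2*, *Fzd3*, *Fzd4* and *Fzd7*) were above 10, from 10.57 ± 0.08 for *Fzd1* to 11.86 ± 0.13 for *Fzd2*. *Lrp5* (11.13 ± 0.03), *Lrp6* (11.38 ± 0.09), *Ror1* (11.01 ± 0.12), *Ror2* (10.92 ± 0.05) and *Ryk* (11.77 ± 0.05) were all above 10. So were the inhibitor *Dkk1* (10.52 ± 0.18), the Dickkopf receptor *Kremen1* (10.14 ± 0.09) and the R-spondin receptor *Lgr4* (10.93 ± 0.17). *Porcn* stood at 8.83 ± 0.11, *Wif1* at 7.42 ± 0.12 and the 3 R-spondins at 9.62 ± 0.27 (*Rspo1*), 8.30 ± 0.21 (*Rspo2*) and 8.36 ± 0.46 (*Rspo3*).

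**Figure D1:**
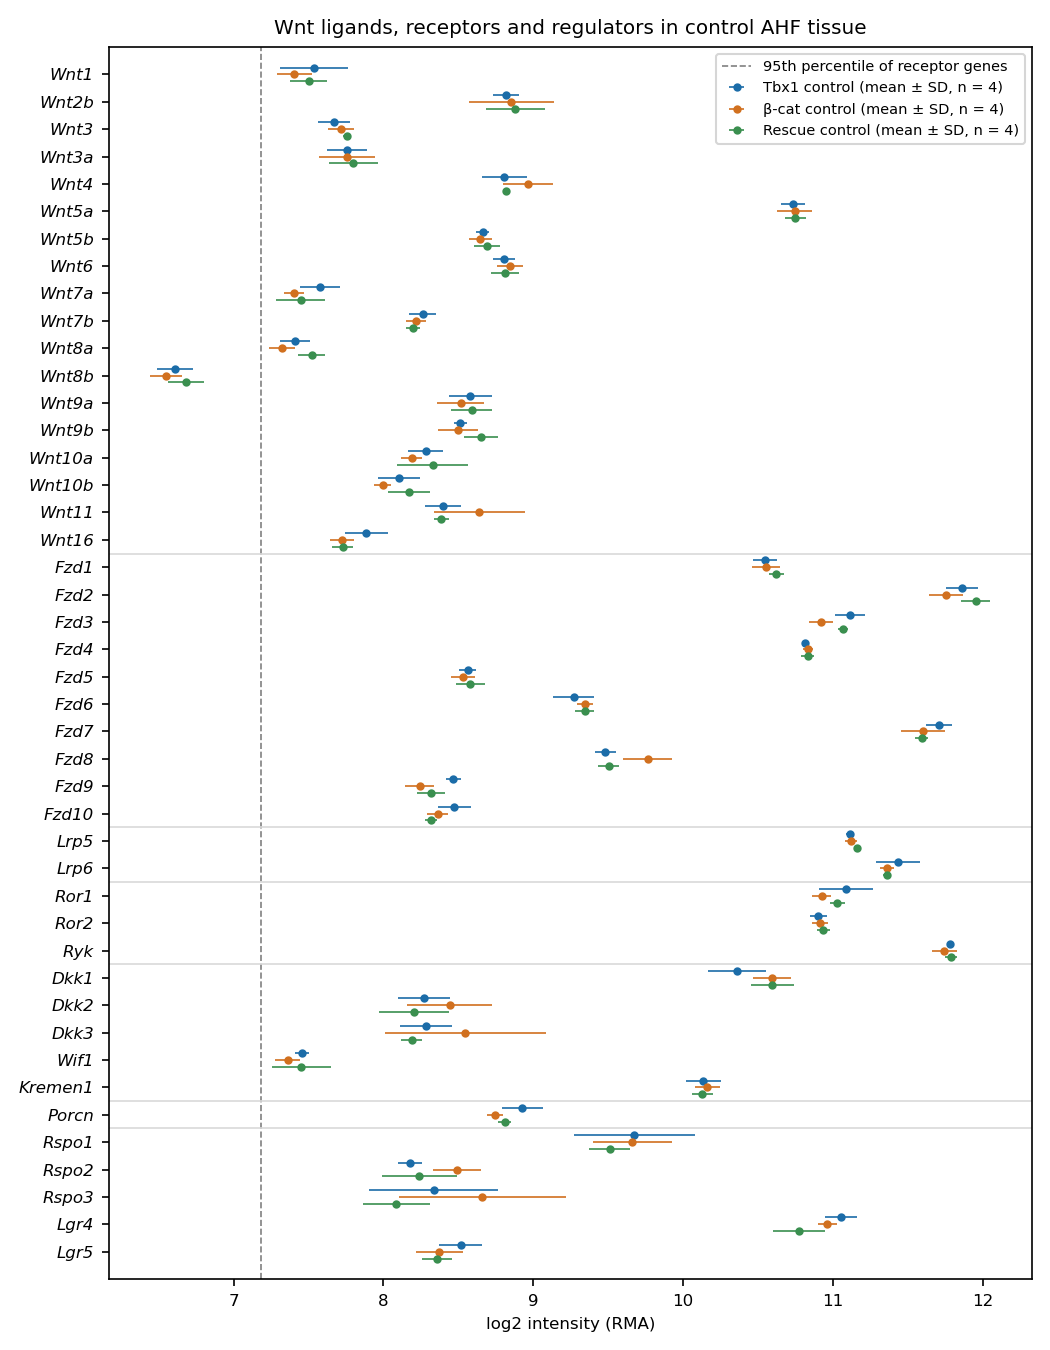
Log2 RMA intensity (x axis) of the 44 genes (y axis, grey lines between roles) in the *Tbx1*, *β-cat* and rescue control groups, as mean ± SD of 4 arrays. The dashed line marks 7.18, the 95th percentile of olfactory and vomeronasal receptor genes, and *Wnt8b* is the one gene to its left.

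The spread between arrays of the same group differed by class of gene. The residual SD of the fit over all arrays had a median of 0.117 for the 44 genes and 0.112 for all genes. The lowest values were those of the receptors *Lrp5* (0.0402, at the 0.471 percentile of all genes), *Ryk* (0.0492) and *Fzd1* (0.0668). Other receptors were above the median of all genes, among them *Lgr4* (0.158, 83.3rd percentile), *Lgr5* (0.145), *Ror1* (0.138), *Fzd2* (0.118), *Fzd3* and *Fzd8* (0.115 each). Among the most variable genes were secreted proteins, with 0.327 for *Rspo3* (98.9th percentile), 0.278 for *Rspo1*, 0.246 for *Dkk3*, 0.241 for *Dkk2* and 0.237 for *Wnt2b*. That of *Dkk3* was 0.116 without *β-cat* control array 2, and that of *Wnt7a* went from 0.196 to 0.110 without *Tbx1 LOF* array 2. By role, the median percentile was 87.4 for the inhibitors, 83.3 for R-spondins and Lgr receptors, 69.7 for ligands, 33.6 for Frizzled receptors, 22.5 for *Lrp5* and *Lrp6* and 12.5 for *Ror1*, *Ror2* and *Ryk*.

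None of the 44 genes passed an adjusted p of 0.05 in *Tbx1 LOF*, *β-cat LOF* or rescue against their own controls (limma, Benjamini-Hochberg over all genes; all genes 0.0301%, 0% and 0%). At an unadjusted p under 0.05, 3 of 44 were called in *Tbx1 LOF* (all genes 4.12%), 3 in *β-cat LOF* (5.72%) and 0 in rescue (1.27%, of which 0.371% higher and 0.898% lower). These counts are close to what the shares of all genes give for 44 genes. With a fold change over 1.5 as a further condition, 0 of 44 remained in each (all genes 0.326%, 0.451% and 0.01%). The median log2 fold change of the 44 genes was -0.00, 0.05 and -0.01 in the 3 comparisons, against -0.01, 0.01 and -0.02 for all genes. Log2 fold changes within 0.1 of 0 were found for 31, 28 and 40 of the 44 (70.5%, 63.6% and 90.9%), against 83.5%, 73.1% and 88.2% of all genes.

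The intervals limit how large a change these arrays could have missed only where the groups spread alike. They used a residual SD pooled over all arrays. They can be too narrow for groups that spread widely and too wide for tight groups. The SD of *Rspo3* was 0.19 in *Tbx1 LOF* and 0.43 in its controls. For *β-cat LOF* and its controls it was 0.19 and 0.56, and for rescue 0.14 and 0.23. Whether *Rspo3* in *Tbx1 LOF* stays inside a 1.5-fold change with its own groups' spread was not tested. The 95% confidence interval of the log2 fold change lay inside a 1.5-fold change in either direction for 41 of 44 genes in *Tbx1 LOF*, 40 in *β-cat LOF* and 44 in rescue (98.0%, 97.8% and 98.9% of all genes). It reached further for *Wnt2b*, *Dkk2* and *Rspo1* in *Tbx1 LOF* and for *Wnt2b*, *Dkk3*, *Rspo1* and *Rspo3* in *β-cat LOF*. All Frizzled, LRP, Ror and Ryk genes were inside in every comparison.

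**Figure D2:**
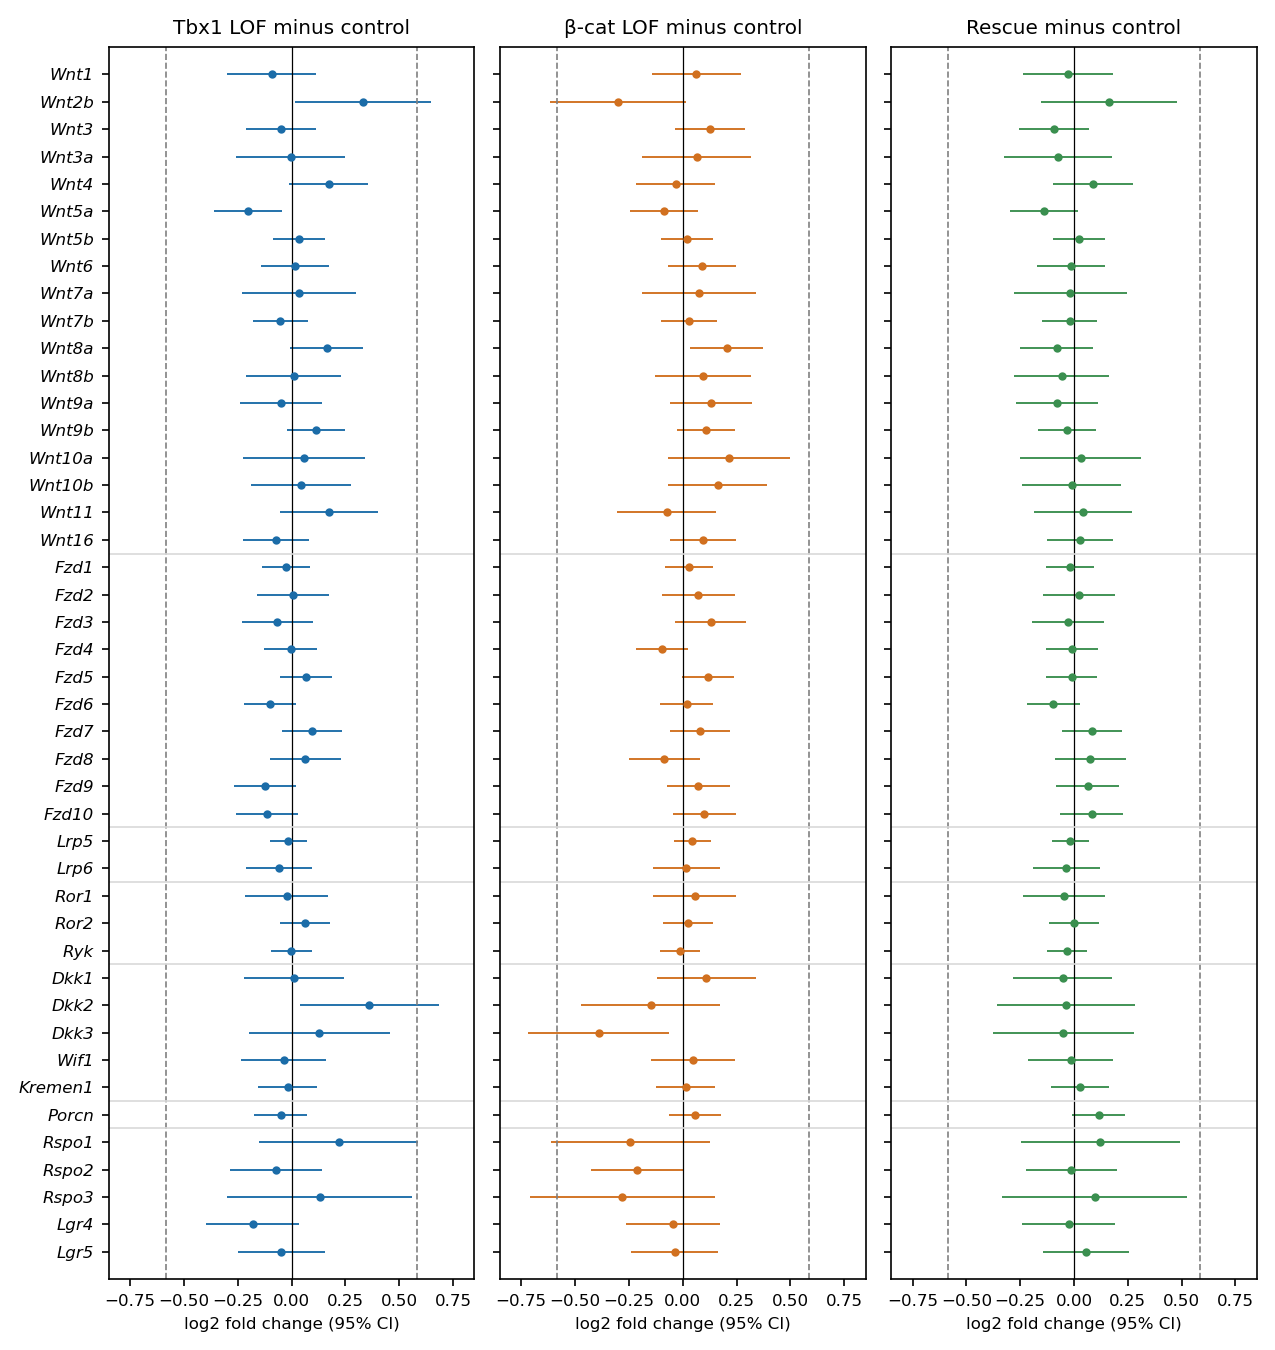
Log2 fold change against its own control group (x axis) of the 44 genes (y axis, grey lines between roles) in *Tbx1 LOF*, *β-cat LOF* and rescue, with 95% confidence intervals from the fit to 24 arrays. Dashed lines mark a 1.5-fold change, and every rescue interval lies between them, as do 41 *Tbx1 LOF* and 40 *β-cat LOF* intervals.

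Among the ligands, *Wnt5a* was the gene of the list whose 4 *Tbx1 LOF* arrays all lay below the 4 controls (all genes 0.973%), and none lay above them in all arrays (all genes 1.32%). It was also the 1 gene on the lower side at an unadjusted p under 0.05 (all genes 1.95%). The *Tbx1 LOF* arrays 1 to 4 read 10.41, 10.50, 10.61 and 10.60, and the control arrays 10.83, 10.64, 10.76 and 10.70. The mutant arrays with numbers 3 and 4 came close to the lowest control, and no array crossed over. Its log2 fold change was -0.20 (SE 0.08, 95% CI -0.36 to -0.04; limma, unadjusted p = 0.0148, adjusted p = 0.901), and an exact two-sided permutation test gave p = 0.0286, the smallest that 4 against 4 arrays allow. Any full separation gives that exact p, so it restates the separation. Without mutant array 1 or control array 1 the limma p was 0.0587 or 0.0508. *Wnt5a* has been described as acting downstream of *Tbx1* in the second heart field.

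In rescue, *Wnt5a* read 10.57, 10.61, 10.56 and 10.69 against 10.83, 10.76, 10.67 and 10.72 in the controls, with 1 rescue array above 1 control. The log2 fold change there was -0.14 (unadjusted p = 0.0815; exact permutation p = 0.0571), and it was -0.09 in *β-cat LOF* (unadjusted p = 0.264), where the arrays overlapped widely. The *Wnt5a* differences of *Tbx1 LOF* and rescue were -0.06 apart on the log2 scale (95% CI -0.29 to 0.16), so a difference between them was not detectable. Of the 13 planar cell polarity core genes, a pathway that Wnt5a feeds, *Ankrd6* was the gene called in *Tbx1 LOF* at an unadjusted p under 0.05 (all genes 4.12%), at -0.29 (adjusted p = 0.243). In *β-cat LOF* (all genes 5.72%), *Celsr2* stood at 0.31, *Ankrd6* at 0.18 and *Vangl1* at -0.12, and in rescue (all genes 1.27%) *Prickle2* stood at -0.21, none with an adjusted p under 0.05.

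*Wnt2b*, a ligand that acts through β-catenin and is known from foregut mesoderm, differed most between the mutants. In *Tbx1 LOF* it read 9.24, 8.77, 9.39 and 9.20 against control arrays of 8.90, 8.88, 8.75 and 8.74. Mutant arrays 1, 3 and 4 exceeded every control and mutant array 2 did not. The log2 fold change was 0.33 (SE 0.15; limma, unadjusted p = 0.0397; exact permutation p = 0.0857), 1 of 2 genes of the list on the higher side at that level (all genes 2.17%). Leaving out mutant array 1, 3 or 4 or control array 3 or 4 gave p of 0.0734 to 0.133.

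In *β-cat LOF*, *Wnt2b* read 8.84, 8.78, 8.47 and 8.11 against 9.18, 8.78, 8.95 and 8.51, with a log2 fold change of -0.30 (unadjusted p = 0.0611). Both groups spread widely and overlapped. In rescue it read 8.82, 9.17, 9.10 and 9.08 against 8.87, 8.61, 9.08 and 8.96, with a log2 fold change of 0.16 (unadjusted p = 0.295). The *Tbx1 LOF* change minus the *β-cat LOF* change was 0.63 (SE 0.22; limma, unadjusted p = 0.00748, adjusted p = 0.388). Leaving out single arrays gave 0.49 to 0.76, with an unadjusted p of at most 0.0229.

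Other lists moved with *Wnt2b*. Of 9 posterior heart field and inflow markers, 6 were higher in *Tbx1 LOF* at an unadjusted p under 0.05 (all genes 2.17%). In *β-cat LOF* 4 were lower (all genes 2.88%). Their mean per array was 10.62 to 11.26 in *Tbx1 LOF* and 10.33 to 10.85 in its controls, 9.81 to 10.57 in *β-cat LOF* and 10.18 to 10.83 in its controls, and 10.27 to 10.72 in rescue and 10.31 to 10.48 in its controls. The mean of the 12 cardiomyocyte markers was 10.29 to 10.68 in *Tbx1 LOF* against 9.27 to 9.86, and 9.51 to 10.10 in *β-cat LOF* against 10.11 to 12.49. The part of these cell types in the *Wnt2b* values was not tested. The related ligand *Wnt2*, not on the list, gave log2 fold changes of 0.77 (SE 0.21, adjusted p = 0.398), -0.51 and 0.22 in *Tbx1 LOF*, *β-cat LOF* and rescue.

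*Wnt8a* was the ligand on the higher side in *β-cat LOF* (all genes 2.83%). The mutant arrays read 7.58, 7.34, 7.44 and 7.76 and the controls 7.26, 7.30, 7.29 and 7.45. Mutant arrays 1 and 4 were above every control, and the groups overlapped. This was a log2 fold change of 0.21 (SE 0.08; limma, unadjusted p = 0.0199, adjusted p = 0.843; exact permutation p = 0.0857), and without mutant array 4 it was 0.13 (unadjusted p = 0.116) and without control array 1 it was 0.18 (unadjusted p = 0.0519). Array weights gave 0.13 (unadjusted p = 0.0717).

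In *Tbx1 LOF*, *Wnt8a* read 7.61, 7.42, 7.77 and 7.49 against 7.51, 7.45, 7.27 and 7.40, a log2 fold change of 0.16 (unadjusted p = 0.0579), and in rescue it read 7.47, 7.39, 7.51 and 7.39 against 7.41, 7.52, 7.63 and 7.53, a log2 fold change of -0.08. All of these values lie near the receptor-gene reference of 7.18. The difference of the *Tbx1 LOF* and rescue changes was 0.24 (limma, unadjusted p = 0.0470), and *Wnt8a* was the 1 gene of 44 called in that comparison (all genes 1.71%, with 0.943% higher). It did not pass the adjusted test, and leaving out any of 10 single arrays took p to 0.0513 or more. In *β-cat LOF*, where *Wnt8a* was higher, 7 of 15 neural tube markers were too (all genes 2.83%). Their mean per array was 8.78 to 9.03 there against 8.53 to 8.69 in the controls. The group mean of these markers was lower in *Tbx1 LOF* (8.87 against 9.14), where *Wnt8a* stood at 0.16. It was higher in rescue (8.96 against 8.78), where *Wnt8a* stood at -0.08. The part of neural tube cells in the *Wnt8a* values was not tested.

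Of the other 15 ligands, none had an unadjusted p under 0.05 in any of the 3 comparisons. *Wnt4* stood at 0.17 in *Tbx1 LOF* (95% CI -0.01 to 0.36), *Wnt11* at 0.17 (95% CI -0.05 to 0.40) and *Wnt9b*, which patterns epithelia, at 0.11 (95% CI -0.02 to 0.25). In *β-cat LOF* the largest value among the ligands was 0.22 for *Wnt10a* (95% CI -0.07 to 0.50), where mutant array 4 read 8.82 and the other 3 lay between 8.24 and 8.30. Positive values were found for 14 of 18 ligands in *β-cat LOF* (all genes 57.4%), 11 in *Tbx1 LOF* (41.3%) and 6 in rescue (39.1%). These signs are counts of small differences, with medians of 0.08, 0.03 and -0.02.

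**Figure D3:**
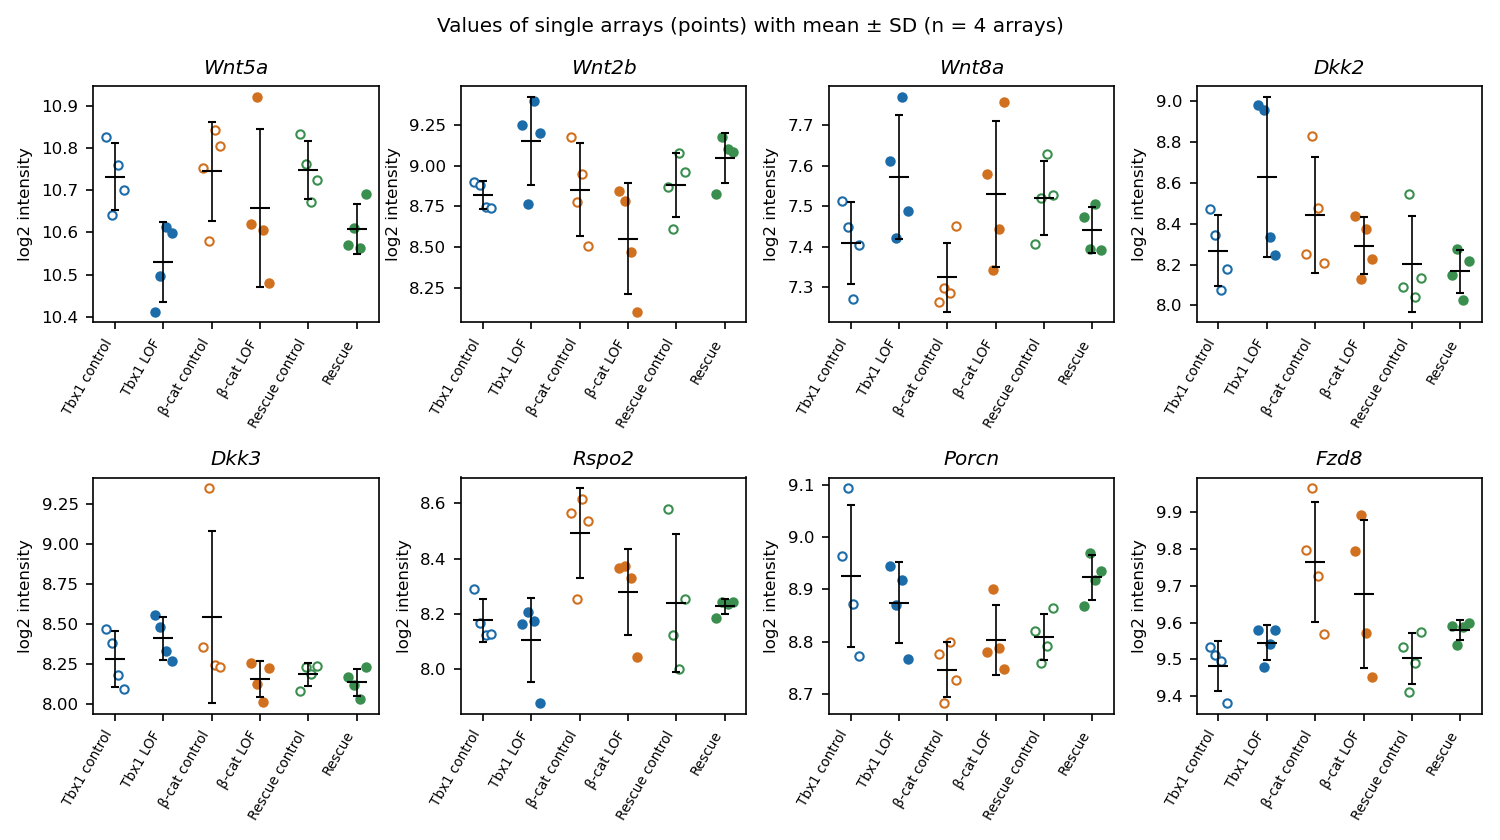
Log2 intensity (y axis) of 8 genes in each of the 24 arrays, by group (x axis): open points are controls, filled points mutants, and black bars the mean ± SD of 4 arrays. The *Tbx1 LOF* points of *Wnt5a* lie below all their controls and the rescue points of *Porcn* above all theirs, and 1 *β-cat* control of *Dkk3* stands at 9.35.

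*Porcn*, whose product acylates Wnt ligands for secretion, was the gene of the list whose 4 rescue arrays all lay above their controls (all genes 0.737%). The rescue arrays read 8.87, 8.97, 8.92 and 8.93 and the controls 8.82, 8.76, 8.79 and 8.86. The gap between the groups was small, 8.87 against 8.86. This came to a log2 fold change of 0.11 (SE 0.06; limma, unadjusted p = 0.0647; exact permutation p = 0.0286), and it was -0.05 in *Tbx1 LOF*, against 0.06 after loss of *β-catenin*. Any full separation of 4 against 4 arrays gives that exact p, so it only restates the separation by which *Porcn* was picked. No gene of the list had all rescue arrays below the controls (all genes 2.24%), and none was separated in *β-cat LOF* in either direction (all genes 2.06% above and 0.787% below).

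The receptors stayed close to their controls. The 10 Frizzled genes had log2 fold changes from -0.12 (*Fzd9*) to 0.10 (*Fzd7*) in *Tbx1 LOF*, from -0.10 (*Fzd4*) to 0.13 (*Fzd3*) in *β-cat LOF* and from -0.10 (*Fzd6*) to 0.08 (*Fzd7*) in rescue. In *β-cat LOF*, 8 of the 10 were positive (all genes 57.4%) with a median of 0.07, and *Fzd5* had the smallest p of them (log2 fold change 0.12, unadjusted p = 0.0555). *Fzd10* stood at -0.11 in *Tbx1 LOF*, against 0.10 after loss of *β-catenin*. Its *Tbx1 LOF* arrays read 8.28, 8.44, 8.49 and 8.22 against 8.56, 8.58, 8.39 and 8.37, and its *β-cat LOF* arrays 8.40, 8.32, 8.49 and 8.63 against 8.45, 8.37, 8.31 and 8.31. Both pairs of groups overlapped, and the difference of the changes was -0.22 (SE 0.10; limma, unadjusted p = 0.0404, adjusted p = 0.722; with the replicate block, unadjusted p = 0.0538).

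*Lrp5* and *Ryk* gave the narrowest intervals of the list. *Lrp5* had log2 fold changes of -0.01 (95% CI -0.10 to 0.07), 0.04 (-0.04 to 0.13) and -0.02 (-0.10 to 0.07) in *Tbx1 LOF*, *β-cat LOF* and rescue. For *Ryk* they were -0.00 (95% CI -0.09 to 0.09), -0.01 (-0.11 to 0.08) and -0.03 (-0.13 to 0.06). *Lrp6*, *Ror1* and *Ror2* lay between -0.06 and 0.06 in all 3 comparisons.

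Among the inhibitors, *Dkk2* was the other gene on the higher side in *Tbx1 LOF*. The mutant arrays read 8.98, 8.96, 8.34 and 8.25 and the controls 8.47, 8.35, 8.08 and 8.18. Mutant arrays 1 and 2 were above every control, whereas arrays 3 and 4 lay within the control range. The log2 fold change was 0.36 (SE 0.16; limma, unadjusted p = 0.0290; exact permutation p = 0.200), with 0.56 over arrays 1 and 2 and 0.16 over arrays 3 and 4. It did not pass the adjusted test. The limma fit without mutant array 1 or 2 gave 0.25 (unadjusted p of 0.135 and 0.126), and without control array 3 or 4 it gave 0.30 and 0.33 (0.0896 and 0.0644). With the *Tbx1* experiment fitted alone the unadjusted p was 0.0611.

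In *β-cat LOF* *Dkk2* read 8.44, 8.13, 8.38 and 8.23 against 8.25, 8.83, 8.48 and 8.21 (log2 fold change -0.15), and in rescue 8.15, 8.28, 8.03 and 8.22 against 8.09, 8.55, 8.04 and 8.13 (-0.04). In both experiments the highest array of *Dkk2* was control array 2. The *Tbx1 LOF* change minus the *β-cat LOF* change was 0.51 (SE 0.22; limma, unadjusted p = 0.0292, adjusted p = 0.658), and without *β-cat* control array 2 it was 0.38 (unadjusted p = 0.0837).

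*Dkk3*, a divergent Dickkopf whose effect on Wnt signalling varies with context, was on the lower side in *β-cat LOF*. The mutant arrays read 8.26, 8.13, 8.01 and 8.22 and the controls 8.36, 9.35, 8.24 and 8.23. Control array 2 stood above every other array of the experiment and was the array with the cardiomyocyte marker mean of 12.49, and the part of those cells in its *Dkk3* value was not tested. The mutants had a log2 fold change of -0.39 (SE 0.16; limma, unadjusted p = 0.0216, adjusted p = 0.845; exact permutation p = 0.114), and without control array 2 it was -0.12 (unadjusted p = 0.169), and without mutant array 3 it was -0.34 (p = 0.0606). Array weights gave -0.23 (limma, unadjusted p = 0.0916), and the experiment fitted alone gave an unadjusted p of 0.0965. In *Tbx1 LOF* it was 0.13 and in rescue -0.05. The difference of the *Tbx1 LOF* and *β-cat LOF* changes was 0.52 (unadjusted p = 0.0298, adjusted p = 0.658), and 0.25 (unadjusted p = 0.0442) without that array.

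In all, 4 of the 44 genes differed in their response between both mutants by limma at an unadjusted p under 0.05 (all genes 6.44%), and 0 at an adjusted p under 0.05 (all genes 0.0502%). *Wnt2b*, *Dkk2* and *Dkk3* were higher in the *Tbx1 LOF* change (all genes 3.41%) and *Fzd10* was lower (all genes 3.04%). Of them 1, *Wnt2b*, also differed by over 1.5-fold (all genes 1.19%). Leaving out single arrays took p to 0.0504 or more in 6 cases of 16 for *Dkk2*, 4 for *Dkk3* and 9 for *Fzd10*, and in 0 for *Wnt2b*.

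*Dkk1*, a canonical target gene that feeds back on the pathway, gave log2 fold changes of 0.01 (95% CI -0.22 to 0.24) in *Tbx1 LOF*, 0.11 (-0.12 to 0.34) in *β-cat LOF* and -0.05 (-0.28 to 0.18) in rescue. In *β-cat LOF* the arrays read 10.51, 10.58, 11.03 and 10.69 and the controls 10.47, 10.50, 10.73 and 10.67. No decrease beyond -0.12 on the log2 scale falls within that interval. Of 15 measured canonical target genes, 0 were called by limma at an unadjusted p under 0.05 after loss of *β-catenin* (all genes 5.72%) and 0 in rescue (1.27%). In *Tbx1 LOF* 2 were called, both higher (all genes 2.17%), the BMP pseudoreceptor *Bambi* (0.33, adjusted p = 0.344) and the Frizzled-removing ligase *Rnf43* (0.13, not past the adjusted test). At such shares few or no calls arise among 15 genes, so these counts do not show that the targets were unchanged. *Wif1* lay between -0.04 and 0.05, and *Kremen1* between -0.02 and 0.03.

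Promoter sequence is shown for the inhibitor that is a textbook target of TCF/LEF factors and for the ligand and the inhibitor that were on the higher side in *Tbx1 LOF*. Of the 44 genes, 28 had entries in the RefSeq promoter table (GRCm38.p6), with 31 windows of the 250 bases before a transcript start. The TCF/LEF word CTTTGAA, the word CTTTGAT, the word CTTTGTA and the word CTTTGTT were searched on both strands, and no match overlapped another in the windows of the list. They occurred in 4 of the 31 windows (12.9%) and in 14.8% of all 32851 windows of that length. The windows with a word were those of *Fzd7*, *Wnt5b*, *Wnt11* and *Dkk1*, and that of *Dkk1* held 2, which 1.43% of all windows did. The T-box word TCACACCT, also searched on both strands, was in none of the 31 and in 1.12% of all windows. A match describes these letters only.

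The *Dkk1* window (chr19:30549497-30549746, minus strand, 60.8% G or C) has its words in capitals, at 117 to 111 and 98 to 92 bases before the start. The *Wnt2b* window (chr3:104961710-104961959, minus strand, 80.8% G or C) and the *Dkk2* window (chr3:132085042-132085291, plus strand, 55.6% G or C) held none. All are written 5′ to 3′ on the strand of the gene.
Dkk1: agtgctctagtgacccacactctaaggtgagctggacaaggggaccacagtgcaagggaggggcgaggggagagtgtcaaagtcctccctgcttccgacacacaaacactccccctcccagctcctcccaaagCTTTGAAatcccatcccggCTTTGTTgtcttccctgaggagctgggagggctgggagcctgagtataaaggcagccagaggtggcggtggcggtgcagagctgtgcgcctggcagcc
Wnt2b: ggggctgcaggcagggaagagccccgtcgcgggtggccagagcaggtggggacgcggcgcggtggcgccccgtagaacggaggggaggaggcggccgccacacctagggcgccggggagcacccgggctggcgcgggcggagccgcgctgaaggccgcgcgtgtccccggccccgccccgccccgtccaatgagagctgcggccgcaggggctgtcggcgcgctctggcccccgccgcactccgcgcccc
Dkk2: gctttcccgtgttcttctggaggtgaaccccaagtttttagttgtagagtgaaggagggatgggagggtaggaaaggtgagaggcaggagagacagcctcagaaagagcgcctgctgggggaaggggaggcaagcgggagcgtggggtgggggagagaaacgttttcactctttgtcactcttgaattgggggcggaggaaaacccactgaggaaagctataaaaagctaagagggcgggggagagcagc

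*Rspo2*, an R-spondin that amplifies Wnt signalling through Lgr receptors, was the second gene on the lower side in *β-cat LOF* (all genes 2.88%). The mutant arrays read 8.36, 8.37, 8.33 and 8.05 and the controls 8.56, 8.25, 8.61 and 8.53. Controls 1, 3 and 4 were above every mutant array, and control array 2 was below 3 of them. For *Rspo2* the log2 fold change was -0.21 (SE 0.10; limma, unadjusted p = 0.0493, adjusted p = 0.854; exact permutation p = 0.114), and without mutant array 4 it was -0.14 (unadjusted p = 0.206). Leaving out mutant array 3 or control array 1, 3 or 4 gave p of 0.0537 to 0.136. Of 9 other settings 5 also ended the call, with an unadjusted p in limma of 0.0503 to 0.0550, the replicate block among them. In *Tbx1 LOF* and rescue it was -0.07 and -0.01.

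All 5 R-spondin and Lgr genes were below 0 in *β-cat LOF*, where 57.4% of all genes were above 0. Their median was -0.21, and 2 of the 5 were within 0.1 of 0. Above 0 were 2 of 5 in *Tbx1 LOF* (all genes 41.3%) and 3 of 5 in rescue (all genes 39.1%). *Rspo1* stood at -0.24 (95% CI -0.61 to 0.13) and *Rspo3* at -0.28 (-0.71 to 0.15), intervals that include both 0 and a 1.5-fold decrease. In *Tbx1 LOF* *Rspo1* stood at 0.22 (95% CI -0.15 to 0.59). The difference of the *Rspo1* changes between the 2 mutants was 0.46 (SE 0.25, unadjusted p = 0.0788). *Rspo3* read 9.45 in *β-cat* control array 2, the array with the high cardiomyocyte markers, and between 8.18 and 8.63 in the other 3 controls, whereas the mutant arrays lay between 8.22 and 8.66. The receptors *Lgr4* and *Lgr5* stood at -0.18 and -0.05 in *Tbx1 LOF*, with 95% CI of -0.40 to 0.04 and -0.25 to 0.15.

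Among 25 other extracellular Wnt pathway genes, 3 were higher in *Tbx1 LOF* at an unadjusted p under 0.05 (all genes 2.17%) and 0 lower. The 3 were *Wnt2*, the secreted Frizzled-related protein *Sfrp5* at 1.02 and *Rnf43* at 0.13. In *β-cat LOF* 0 were higher (all genes 2.83%) and 1, *Wnt2*, was lower (2.88%), and in rescue limma called 0 in either direction (1.27%). None of them had an adjusted p under 0.05.

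The 3 control groups, which differ in their floxed alleles if the study's methods hold, were compared with each other. By a moderated F test in limma, 6 of the 44 genes differed at an unadjusted p under 0.05 (all genes 13.6%) and 0 at an adjusted p under 0.05 (all genes 0.341%). *Fzd8*, a Frizzled receptor, had the smallest p (0.00266, adjusted 0.146). Its *β-cat* controls read 9.80, 9.96, 9.73 and 9.57, against 9.38 to 9.53 in the *Tbx1* controls and 9.41 to 9.58 in the rescue controls. Only the lowest *β-cat* control overlapped with the other groups, and the *β-cat LOF* arrays of *Fzd8* (9.79, 9.89, 9.57 and 9.45) overlapped with their own controls. With the replicate block the adjusted p of *Fzd8* was 0.0183, and the numbers called among the 44 and among all genes at an adjusted p under 0.05 were 1 and 795. The block was fitted within each experiment, so it removed differences between array numbers that are part of the error between control groups. These block results can therefore overstate such differences. For *Fzd8*, arrays 3 and 4 of the *β-cat* experiment differed from arrays 1 and 2 by -0.28 (limma, adjusted p = 0.0587).

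The other genes of this kind are given by their means in the *Tbx1*, *β-cat* and rescue controls. They were *Fzd9* (8.47, 8.24 and 8.32), *Rspo2* (8.18, 8.49 and 8.24), *Porcn* (8.93, 8.75 and 8.81), *Rspo3* (8.34, 8.66 and 8.09) and *Lgr4* (11.05, 10.96 and 10.77). Their unadjusted p in limma ran from 0.0129 for *Fzd9* to 0.0383 for *Lgr4*. *Fzd8* and *Fzd9* stayed under 0.05 with each of the 12 control arrays left out in turn, and the other genes did not. Without *β-cat* control array 2, the range over the groups for *Rspo3* went from 0.57 to 0.31 (unadjusted p = 0.172). Experiment and control genotype cannot be told apart here, so each mutant was set only against its own controls.

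Within the *Tbx1* experiment, arrays numbered 1 and 2 differed from those numbered 3 and 4 in 3656 genes at an adjusted p under 0.05, against 447 in the *β-cat* experiment and 0 in rescue. The labels do not say what the numbers stand for. The study's methods mention hybridisation in several batches, with batch effects seen mainly in the *Tbx1* and *β-cat* experiments, but tie no number to a batch. In the *Tbx1* experiment 6 of the 44 genes passed, a smaller share than the 3656 of all 19938 genes. Arrays 3 and 4 were lower for *Rspo3* by a log2 difference of -0.51 (limma, adjusted p = 0.00967), for *Dkk2* (-0.48, adjusted p = 0.00762), *Ror1* (-0.35, adjusted p = 0.0110), *Lrp6* (-0.26, adjusted p = 0.0161) and *Dkk3* (-0.25, adjusted p = 0.0109), and higher for *Fzd2* (0.23, adjusted p = 0.0220). For each of the 6 this difference was larger in size than the one between *Tbx1 LOF* and control. None of the 44 genes passed this test in the *β-cat* or rescue experiment.

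**Figure D4:**
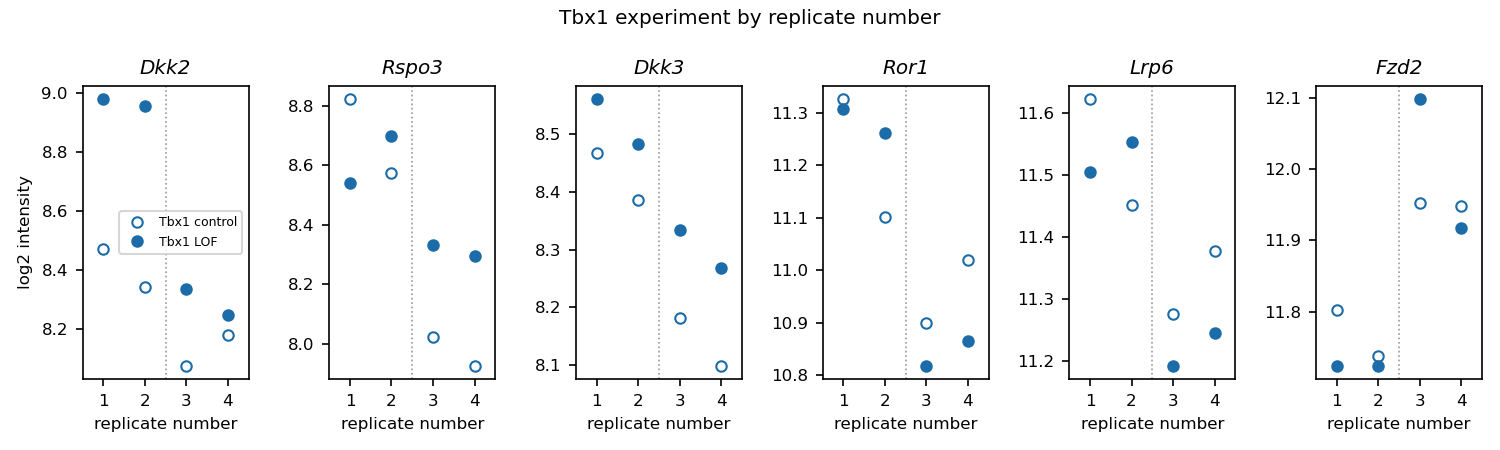
Log2 intensity (y axis) of 6 genes in the *Tbx1* experiment by replicate number (x axis), with open points for controls and filled points for *Tbx1 LOF*. For *Dkk2*, *Rspo3*, *Dkk3*, *Ror1* and *Lrp6* the mean of arrays 3 and 4 lies below that of arrays 1 and 2, and for *Fzd2* above.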

How the data were processed

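RNA from pooled AHF tissue (100 ng for each labelling, per the labels) was hybridised to 24 arrays. Per the submitters' processing notes and the methods, the authors made the deposited log2 values by RMA in the oligo package (background correction, quantile normalization, gene-level summary) without a stated version. No source used here gives each array's batch, and whether ComBat was applied to these values is not stated. Values ran from 3.62 to 14.56.

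Probe sets were kept where they named 1 symbol (21789), not where they named several (1621) or none (12146), and those of the same gene were averaged. All arrays entered 1 limma fit (limma 3.58.1, R 4.3.3) of 6 group means with eBayes, and p-values were adjusted by Benjamini-Hochberg over 19938 genes. Calls used p under 0.05, exact permutation tests were two-sided, and figures used matplotlib 3.10.9. The code was tested on simulated data. Whether pools were of separate litters is not stated, so p-values measure the spread between these arrays, whose number limits the precision.

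Deviations of same-numbered mutant and control arrays in the *Tbx1* experiment correlated at 0.157 to 0.494, and the replicate block was run as an alternative fit. *Tbx1 LOF* arrays 2 and 3 (0.157 and 0.202) correlated more highly with a control of another number (0.407 and 0.431). The correlations therefore do not single out the same-numbered *Tbx1* pairs. In the *β-cat* experiment the same-numbered values were 0.0889 to 0.479. There, arrays 3 and 4 (0.479 and 0.379) exceeded their highest values with another number (0.229 and -0.0490), and arrays 1 and 2 did not. In rescue the same-numbered values were -0.0638 to 0.256.

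Values in every array were given for genes with an unadjusted p under 0.05, or separated groups, in a comparison with controls. Members and lists were chosen with earlier results of these data known.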

Additional observations from a re-analysis of the deposited data

Results flagged for a closer look

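In groups of 4 arrays, 12 genes of the list were searched for an array far from the other 3, 72 groups in all. The 12 had been picked from these same arrays, by an unadjusted p under 0.05 or separated groups in a comparison of mutants or controls. Chance alone sets apart about 1 in 20 groups of genes that were not picked in this way, so that rate is only a guide here. There were 4 such arrays, close to that rate. *Dkk3* read 9.35 in *β-cat* control array 2 against 8.23 to 8.36 in the other controls. *Rspo2* had the other 3: 8.05 in *β-cat LOF* array 4 against 8.33 to 8.37, 7.88 in *Tbx1 LOF* array 4 against 8.16 to 8.21, and 8.19 in rescue array 1 against 8.24 to 8.25. The last gap is small in size and stands out because the other 3 arrays were within 0.01 of each other.

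Responses that differed between mutants by the limma test of the difference itself, at an unadjusted p under 0.05 and none at an adjusted one, were 0.63 for *Wnt2b*, 0.51 for *Dkk2*, 0.52 for *Dkk3* and -0.22 for *Fzd10* (*Tbx1 LOF* change minus *β-cat LOF* change), and 0.24 for *Wnt8a* (*Tbx1 LOF* change minus rescue change). Of these, *Wnt2b* kept an unadjusted p under 0.05 when each of the 16 arrays was left out in turn.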

How the results depend on the processing

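Under no setting tried did any of the 44 genes pass an adjusted p of 0.05 in the 5 comparisons of mutants. No gene named for these comparisons changed the sign of its difference. These genes had been picked from the same arrays for that difference, so the unchanged signs say little. The counts at an unadjusted p under 0.05 did vary. For *Tbx1 LOF* (3 genes) a second quantile normalization gave 5, array weights 7 and the experiment fitted alone 2 (*Wnt2b* and *Wnt5a*, without *Dkk2*), and leaving out single arrays gave 1 to 7. For *β-cat LOF* (3 genes) the second quantile normalization gave 5, the filter on low values, trend and array weights 2 each and the experiment fitted alone 1, and single arrays left out gave 1 (without mutant array 3 or 4) to 9 (without mutant array 2). For rescue (0 genes) the term for arrays 1 and 2 against 3 and 4, the second quantile normalization and array median centring each gave 1 (*Porcn*), array weights 4 and the experiment alone 2, and single arrays left out gave 0 to 0. The difference of *Tbx1 LOF* and *β-cat LOF* (4 genes) gave 4 to 6 under other settings and 2 to 7 with single arrays left out. That of *Tbx1 LOF* and rescue (1 gene) gave 3 with the array-number term, 4 after quantile normalization, 3 after centring, 0 with a trend and robust variance, 3 with array weights, and 0 to 3 with single arrays left out. Among the control groups (6 genes) the array-number term gave 12 and single arrays left out 4 to 11 (11 without *β-cat* control array 4), and the adjusted threshold was passed by *Fzd8* with that term and without that array and by *Rspo2* with array weights. The array-number term was fitted within each experiment, so it left out part of the error between control groups. The count of 43 genes above the receptor reference was the same for the highest probe set and after a second quantile normalization.

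With the replicate block, the counts were 4 in *Tbx1 LOF*, 4 in *β-cat LOF*, 0 in rescue, 5 for *Tbx1 LOF* against *β-cat LOF*, 2 for *Tbx1 LOF* against rescue and 10 among the control groups, with *Fzd8* past the adjusted threshold. The number of all genes at an adjusted p under 0.05 depended more on the setting: 6 in *Tbx1 LOF* became 0 with the block, 10 with the array-number term, 0 with the experiment alone and 0 to 32 with single arrays left out (0 without mutant array 1, 32 without mutant array 2). In *β-cat LOF* 0 became 2 with the block and 0 to 42. For the difference of these, 10 became 2 with the block, 120 with the array-number term, 0 after centring, with trend and with weights, and 0 to 169. Among controls 68 became 795, 1471, 199 with weights and 18 to 265. The first 2 of these, from the block and the array-number term, leave out part of the error between experiments and can overstate differences among controls. At an unadjusted p under 0.05, 253 genes in rescue became 1217 with array weights and 827 with the experiment alone. The causes were not tested.

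Calls of single genes rested on few arrays. *Dkk2* in *Tbx1 LOF* ranged from 0.25 to 0.49 with single arrays left out and *Wnt2b* from 0.25 to 0.46, and *Wnt5a* from -0.23 to -0.16. The gap between the groups of *Porcn* in rescue is smaller than the median residual SD of 0.112.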
